A study of Mus musculus with 10 samples.

Results

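The 8 genes described here encode SREBP2 (Srebf2), its regulator INSIG1 (Insig1) and 6 enzymes of cholesterol synthesis (Hmgcs1, Idi1, Fdft1, Sqle, Lss and Cyp51), out of 32889 genes in the deposited table of mouse brown adipose tissue, a fat depot that burns fuel for heat. They were picked out by gene symbol, from a list drawn up with earlier results of these data known. Shares of the 8 set beside those of all genes below are therefore descriptions. All 8 were found, and all 8 passed the filter on low counts that left 19676 genes for testing. Total RNA of the tissue was sequenced in 10 libraries of wild-type C57BL/6J mice. There were 3 libraries from obesity-prone mice and 3 from obesity-resistant mice, both fed a high-fat diet, and 4 libraries from control mice, which were fed regular chow. The labels give neither age, sex nor length of feeding, nor how prone and resistant mice were told apart, and they do not say whether each library is a separate animal. The p-values therefore measure only the spread between these libraries, which may in part be technical.

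Cells build cholesterol from acetyl-CoA in the endoplasmic reticulum. SREBP2 is a membrane-bound transcription factor that, when sterols in that membrane are low, is carried by SCAP to the Golgi, cut free by proteases and sent to the nucleus, where it switches on the enzymes of the pathway. INSIG proteins hold SCAP back when sterols are plentiful, and Insig1 is itself a target of SREBP. In the same membrane system SREBP1, encoded by Srebf1, drives mainly fatty acid synthesis, which in brown fat is a major pathway.

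The promoters of 3 of these genes are shown because SREBP binds such elements directly upstream of its targets: Srebf2 and Lss, which both rose in obesity-prone libraries, and Hmgcs1, the most abundant of the 8. Each line is the 250 bases before the transcription start used by RefSeq, 5′ to 3′ on the gene's strand, in build GRCm38.p6. Srebf2 lies at chr15:82147019-82147268, Lss at chr10:76531355-76531604 and Hmgcs1 at chr13:119690101-119690350, all on the plus strand. Capitals mark exact matches on either strand to the sterol regulatory element TCACNCCAC, to the CCAAT box and to the GC box GGGCGG, which do not overlap one another.
Srebf2: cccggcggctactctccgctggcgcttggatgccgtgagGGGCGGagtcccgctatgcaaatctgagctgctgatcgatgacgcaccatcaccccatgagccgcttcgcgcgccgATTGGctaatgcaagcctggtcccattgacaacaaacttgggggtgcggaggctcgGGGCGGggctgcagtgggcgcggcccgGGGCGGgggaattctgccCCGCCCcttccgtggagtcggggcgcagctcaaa
Lss: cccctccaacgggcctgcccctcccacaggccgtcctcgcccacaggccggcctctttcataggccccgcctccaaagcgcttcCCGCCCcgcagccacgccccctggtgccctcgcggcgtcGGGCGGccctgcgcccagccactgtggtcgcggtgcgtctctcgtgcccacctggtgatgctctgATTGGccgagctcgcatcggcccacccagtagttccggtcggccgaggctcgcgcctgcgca
Hmgcs1: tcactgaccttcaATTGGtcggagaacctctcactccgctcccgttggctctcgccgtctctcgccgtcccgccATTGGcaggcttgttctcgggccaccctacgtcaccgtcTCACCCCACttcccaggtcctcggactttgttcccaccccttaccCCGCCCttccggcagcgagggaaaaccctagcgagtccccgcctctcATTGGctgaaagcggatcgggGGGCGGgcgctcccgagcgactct

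Windows were present for 6 of the 8 genes (Hmgcs1, Idi1, Lss, Cyp51, Srebf2 and Insig1). The exact element TCACNCCAC occurred once, in Hmgcs1, beginning 137 bases before the start (position -137), against 1.05% of all 32851 windows of that length. With at most 1 mismatch allowed it was found in 4 of the 6 windows and in 20.7% of all windows. In Srebf2 that looser match reads TCACCCCAT and begins at position -162. The Lss window shown above held no match to this element, exact or looser. A CCAAT box was present in 6 of 6 windows, against 33.8% of all windows, and a GC box also in 6 of 6, against 32.7%. These matches are letters in a window, not sites shown to be bound.

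The libraries held between 35583997 and 37327770 counts, and log2 CPM correlated at 0.963 to 0.985 between libraries of a group. Levels are given as CPM, the count scaled to a library of fixed size, with library sizes normalised by TMM factors. Brown adipocyte markers (10 genes, Ucp1 among them, none at 0 in any library) summed to between 4000 and 11110 CPM in obesity-prone, 11670 and 12710 in obesity-resistant and 8794 and 12720 in control libraries. Obesity-prone replicate 3 had the 4000. On the leading principal component, which held 30.6% of the variance, that library and control replicate 4 stood apart from the others of their groups. The summed level of 10 macrophage markers, none at 0 in any library, ran between 197.5 and 572.1 CPM in obesity-prone, 137.2 and 165.6 in obesity-resistant and 134.4 and 242.7 in control libraries. All 10 had an unadjusted p below 0.05 in obesity-prone against control libraries, against 28.14% of all genes tested. There edgeR called 2 of them as higher, DESeq2 called 8 and limma 0. Of all genes tested, edgeR called 7.00% in either direction and DESeq2 3138. Of 8 general adipocyte markers, none at 0, the sums were 5629 to 5709 CPM in obesity-prone, 5747 to 5975 in obesity-resistant and 6703 to 9148 in control libraries. In obesity-prone against control libraries edgeR called 2 of these 8 as lower, DESeq2 called 4 and limma 1. Skeletal muscle markers (10 genes, 4 of them at 0 in at least 1 library) summed to between 1.41 and 57.4 CPM in obesity-prone, 2.197 and 571.3 in obesity-resistant and 0.937 and 656 in control libraries. Erythrocyte markers (6 genes, none at 0) summed to between 2417 and 22200 CPM in obesity-prone, 708.1 and 2547 in obesity-resistant and 821.6 and 6157 in control libraries. All 6 had an unadjusted p below 0.05 in obesity-prone against control libraries, with a median log2 difference of 2.04, and neither edgeR nor DESeq2 called any. Progenitor and fibroblast markers (7 genes, none at 0) summed to between 415.2 and 924.3, 323.9 and 364.1, and 346.4 and 515.5 CPM in the same order of groups. For 8 endothelial markers, none at 0, it was 1300 to 1519, 1189 to 1450 and 831 to 1575 CPM. The part of these cell types in the results below was not tested, except where values without a library or with a muscle covariate are given. In bulk tissue, fewer cells of a type and less RNA per cell cannot be told apart.

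Obesity-prone libraries were first set against control libraries, to ask how these genes differ in the brown fat of mice prone to obesity on the diet. SREBP2's own gene and the enzymes on each side of the squalene epoxide step were higher in obesity-prone libraries: Srebf2, Sqle and Lss rose by 1.37- to 1.52-fold. A gene is said to have risen or fallen when its p from edgeR's quasi-likelihood test, after Benjamini-Hochberg adjustment across the 19676 genes that passed the filter, was below 0.05. By this test 3 of the 8 genes rose and none fell. Of the 19676 genes, 3.71% rose, and 7.00% were called in either direction. The count of members was 7 by DESeq2, where every one but Idi1 was called, and 2 by limma on log2 FPKM. Of all genes, DESeq2 called 3138 and limma 1026. In 6 of the 8 genes (all but Idi1 and Fdft1) every obesity-prone library lay above every control library, against 9.66% of all genes tested. The median log2 fold change of the 8 genes was 0.50, against 0.00 over all genes tested.

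Srebf2, the gene of the transcription factor itself (chromosome 15, 82147269 to 82205379, plus strand), had 67.3, 69.3 and 67.0 CPM in obesity-prone, 64.8, 51.5 and 61.1 CPM in obesity-resistant and 47.9, 41.7, 46.9 and 49.4 CPM in control libraries. The 3 groups did not overlap, with obesity-prone libraries on top and control libraries at the bottom. Means were 67.9 ± 1.30 in obesity-prone (SD, n = 3), 59.1 ± 6.91 in obesity-resistant (n = 3) and 46.5 ± 3.34 CPM in control libraries (n = 4). On the log2 scale obesity-prone libraries exceeded control by 0.55 ± 0.09 (SE; adjusted p = 0.018, edgeR). The call held in 20 of 22 alternative settings and ended when only the groups compared were fitted (adjusted p = 0.052, edgeR) and without control replicate 3 (adjusted p = 0.057, edgeR).

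Insig1, which holds the SREBP and SCAP complex in the endoplasmic reticulum, had 175, 226.6 and 204.4 CPM in obesity-prone, 125.3, 133.1 and 197.6 CPM in obesity-resistant and 143.2, 75.6, 154 and 84.7 CPM in control libraries. All obesity-prone libraries were above all control libraries, the controls fell into a higher pair and a lower pair, and the obesity-resistant libraries overlapped both groups. Its log2 fold change over control was 0.82 in obesity-prone libraries, with a 95% interval of 0.24 to 1.40, and did not pass the test (adjusted p = 0.079, edgeR). Its near copy Insig2, which does the same work and is not a member, lay between 16.9 and 19.8 CPM in obesity-prone, 19.1 and 20.4 CPM in obesity-resistant and 16.5 and 20.9 CPM in control libraries. The interval of the Insig2 difference between obesity-prone and control libraries was -0.22 to 0.22 on the log2 scale.

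**Figure D1:**
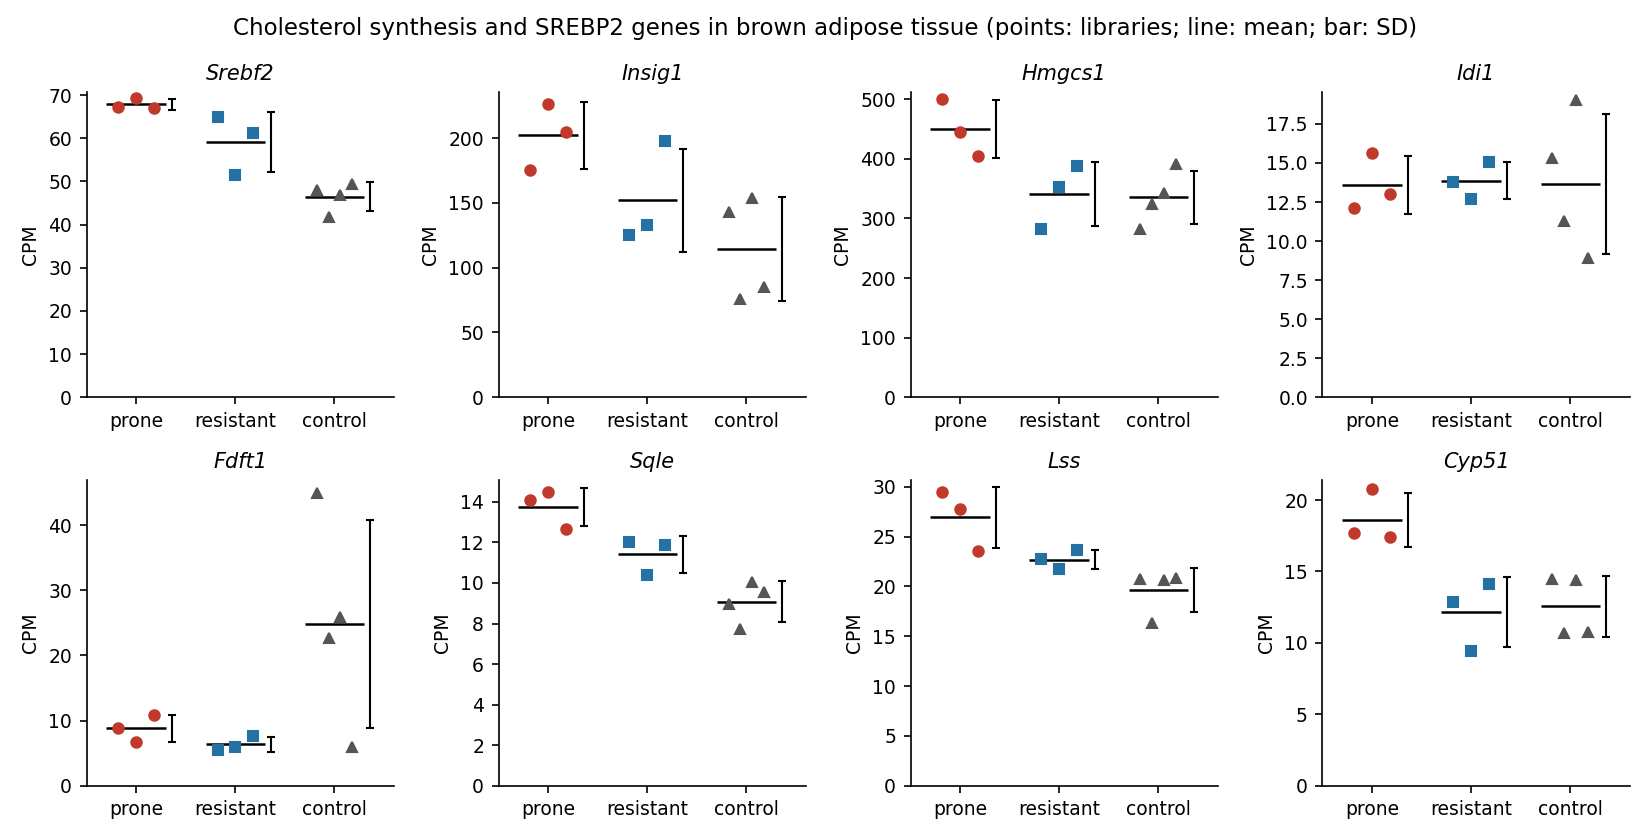
CPM of the 8 genes (vertical axes, each from 0) in obesity-prone, obesity-resistant and control libraries; points are libraries, lines group means and bars SD (n = 3, 3 and 4). Srebf2 and Sqle fall into 3 groups that do not overlap, Idi1 shows no shift, and in Fdft1 control replicates 1 to 3 (22.65 to 44.9 CPM) stand above all other libraries.

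The enzymes that open the pathway did not share one pattern. Hmgcs1 makes HMG-CoA, an early intermediate, and had 501, 444 and 405 CPM in obesity-prone, 282, 353 and 387 CPM in obesity-resistant and 283, 325, 343.5 and 391 CPM in control libraries. The 3 obesity-prone libraries were the highest, and the other groups overlapped throughout. On the log2 scale obesity-prone libraries differed from control by 0.42 ± 0.15 (SE; adjusted p = 0.095, edgeR), and it passed the test when control replicate 4 was left out (0.51, adjusted p = 0.047, edgeR). Hmgcs1 shares 557 exon bases with an antisense gene in the GENCODE vM21 annotation. Since the strand setting of the counting is not stated, reads of both strands cannot be told apart.

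Idi1, which isomerises isopentenyl diphosphate, had 12.1, 15.6 and 13.0 CPM in obesity-prone, 13.8, 12.7 and 15.1 CPM in obesity-resistant and 15.3, 11.3, 19.0 and 8.92 CPM in control libraries. The control libraries spanned the range of both other groups. Between obesity-prone and control libraries the log2 difference was -0.01, with a 95% interval of -0.50 to 0.49. Its counts were not whole numbers in 10 of 10 libraries, as RSEM gives where reads match more than one sequence, and it shares 323 exon bases with an opposite-strand gene. The neighbouring copy Idi2 held 1 count over all libraries.

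Sqle, squalene epoxidase, adds the oxygen from which the sterol rings close. It had 14.1, 14.5 and 12.7 CPM in obesity-prone, 12.01, 10.4 and 11.8 CPM in obesity-resistant and 8.94, 7.71, 10.1 and 9.56 CPM in control libraries. Its counts were not whole in 6 of 10 libraries. As for Srebf2, the 3 groups did not overlap and had the same order. The log2 fold change of obesity-prone over control libraries was 0.60 ± 0.11 (SE; adjusted p = 0.022, edgeR). The call held in 17 of 22 alternatives and ended, with adjusted p between 0.054 and 0.066 (edgeR), in the fit of only the groups compared and when obesity-prone replicate 1 or control replicate 1, 2 or 3 was left out.

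Lss, lanosterol synthase, closes the rings. It had 29.45, 27.7 and 23.6 CPM in obesity-prone, 22.7, 21.7 and 23.7 CPM in obesity-resistant and 20.7, 16.4, 20.7 and 20.9 CPM in control libraries. Every library on the high-fat diet lay above every control library, while the obesity-prone and obesity-resistant groups overlapped. The log2 fold change of obesity-prone over control libraries was 0.45 ± 0.11 (SE; adjusted p = 0.040, edgeR). The call was held in 7 of 22 alternatives: among the 10 that leave out a single library it remained without obesity-prone replicate 3 and without control replicate 4, and the adjusted p elsewhere reached 0.11 (edgeR). Lss shares 381 exon bases with an antisense gene.

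Cyp51, which removes a methyl group from lanosterol, had 17.7, 20.8 and 17.4 CPM in obesity-prone, 12.9, 9.45 and 14.15 CPM in obesity-resistant and 14.45, 10.7, 14.4 and 10.8 CPM in control libraries. The obesity-prone libraries were the highest 3 of the 10, and the other groups overlapped. The log2 fold change over control was 0.57 ± 0.17 (SE; adjusted p = 0.062, edgeR). The 166 exon bases shared with Akap9 on the opposite strand make these counts uncertain to that extent. Akap9 itself lay between 110.5 and 126.4 CPM in obesity-prone and 116.5 and 123.9 CPM in control libraries.

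Fdft1, squalene synthase, commits the pathway to sterols. Its mean on the high-fat diet was lower relative to control than that of any other member. It had 8.79, 6.72 and 10.8 CPM in obesity-prone, 5.42, 5.99 and 7.57 CPM in obesity-resistant and 44.9, 22.65, 26.0 and 6.00 CPM in control libraries. Control replicates 1 to 3 were above all libraries on the high-fat diet, and control replicate 4 was among these. On the log2 scale the difference was -1.50 ± 0.51 in obesity-prone over control libraries (SE; adjusted p = 0.095, edgeR) and -1.97 ± 0.52 in obesity-resistant over control libraries (SE; adjusted p = 0.11, edgeR). Neither passed the test. Without control replicate 4 both did, at -1.83 (adjusted p = 0.0062, edgeR) and -2.30 (adjusted p = 0.0081, edgeR). With the replicate number as a block, the difference of obesity-resistant over control libraries was -2.26 and passed (adjusted p = 0.022, edgeR). Only control replicate 4 bears the number 4, so the blocked value, too, leaves that library out of the difference.

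The libraries with high Fdft1 were also those with high Acly, and not those with high Sqle, the next enzyme. Acly, which supplies acetyl-CoA for fatty acids and sterols, had 160.4, 155.0 and 130.6 CPM in obesity-prone, 165.8, 138.7 and 156.0 CPM in obesity-resistant and 932, 381.6, 1147 and 259.3 CPM in control libraries. Control replicate 4 was the lowest control in both genes. Per length, the log2 ratio of Fdft1 to Sqle FPKM was -1.14, -1.56 and -0.69 in obesity-prone, -1.55, -1.27 and -1.10 in obesity-resistant and 1.88, 1.13, 0.94 and -1.12 in control libraries. Fdft1 exceeded Sqle in control replicates 1 to 3 and in no other library. Fdft1 shares 774 exon bases with Ctsb, the cathepsin B gene on the opposite strand, which had 721.8, 676 and 896.9 CPM in obesity-prone, 571.8, 694 and 658 CPM in obesity-resistant and 841, 774.7, 816.7 and 680.7 CPM in control libraries. Ctsb did not pass the test in either comparison with control (adjusted p = 0.92 and 0.32, edgeR). What part of the Fdft1 counts comes from this overlap was not tested.

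**Figure D2:**
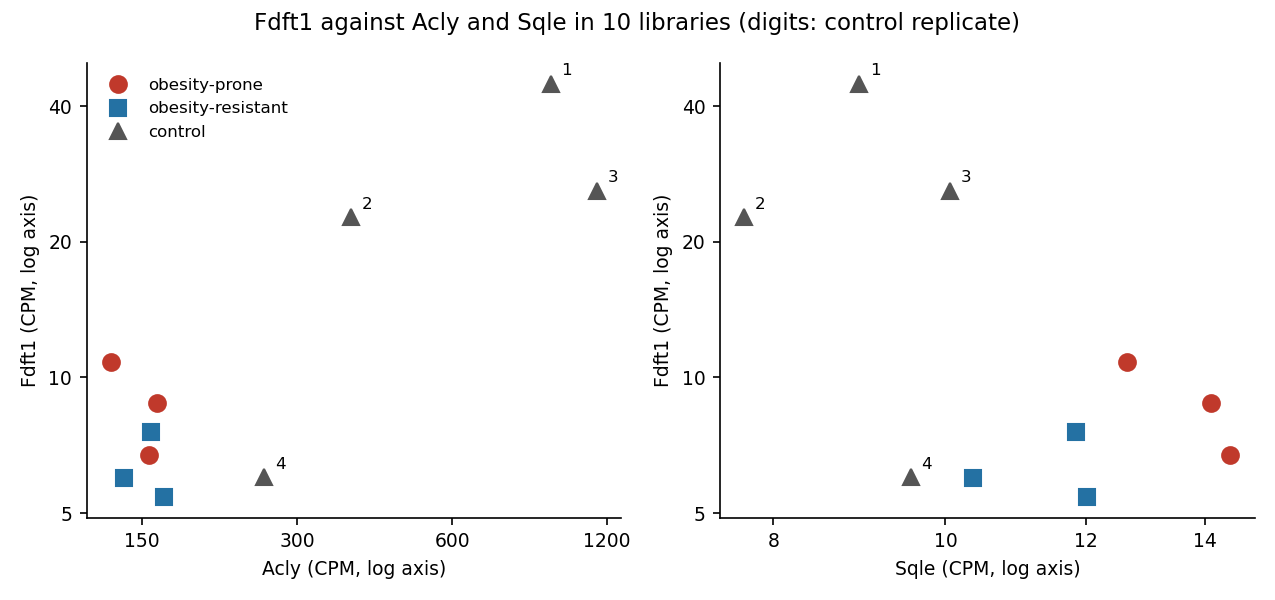
Fdft1 against Acly (left) and Sqle (right) in the 10 libraries, CPM on log axes; each point is a library and digits give the control replicate. Control replicates 1 to 3 are high in both Fdft1 and Acly, control replicate 4 is near the libraries on the high-fat diet, and no such ordering appears against Sqle.

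Obesity-resistant libraries were next set against control libraries, to ask how the genes stand in mice that resist obesity on the diet. None of the 8 genes passed edgeR's test here. At an unadjusted p below 0.05 were 3 (Srebf2, Sqle and Fdft1), against 17.99% of all genes tested. DESeq2 called 2 (Fdft1 and Srebf2) and limma 0, against 1138 and 36 of all genes. With the replicate number as a block, 1 of the 8 (Fdft1) passed edgeR's test, and 382 of all genes did, against 28 without the block. The block leaves control replicate 4 out of the difference, since no other library bears its number. Without the block few genes passed at all: 0.142% of genes tested in either direction and 0.0966% upward. In Srebf2, Sqle and Lss all obesity-resistant libraries lay above all control libraries, so 3 of 8 members did, against 10.5% of all genes tested. Srebf2 differed by 0.35 on the log2 scale, with a 95% interval of 0.14 to 0.56 (adjusted p = 0.11, edgeR). Sqle differed by 0.33, with an interval of 0.08 to 0.58 (adjusted p = 0.18, edgeR), and Lss by 0.21, with an interval of -0.04 to 0.45 (adjusted p = 0.36, edgeR). Hmgcs1 and Cyp51, high in obesity-prone libraries, differed by 0.02 (interval -0.30 to 0.35) and -0.05 (interval -0.42 to 0.32) between obesity-resistant and control libraries. The median log2 difference of the 8 genes was 0.11, against -0.01 over all genes tested. Both comparisons use the same 4 control libraries.

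Set directly against each other, obesity-prone and obesity-resistant libraries gave no call in any of the 19676 genes by edgeR (0%), with a lowest adjusted p of 0.23 and 3030 genes at an unadjusted p below 0.05. DESeq2 called 565 genes, none of them a member, and limma called no member. At an unadjusted p below 0.05 stood 2 of the 8 genes. Cyp51 differed by 0.62 on the log2 scale (95% interval 0.22 to 1.01; adjusted p = 0.23, edgeR) and Hmgcs1 by 0.40 (interval 0.05 to 0.75; adjusted p = 0.28, edgeR). In 4 genes (Sqle, Srebf2, Hmgcs1 and Cyp51) all obesity-prone libraries lay above all obesity-resistant libraries, against 9.99% of all genes tested. The order obesity-prone above obesity-resistant above control with no overlap was met by 2 of the 8 genes, Srebf2 and Sqle, and by 0.564% of all genes tested. A difference between the prone and resistant arms was thus not shown for any of the 8 genes by edgeR.

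**Figure D3:**
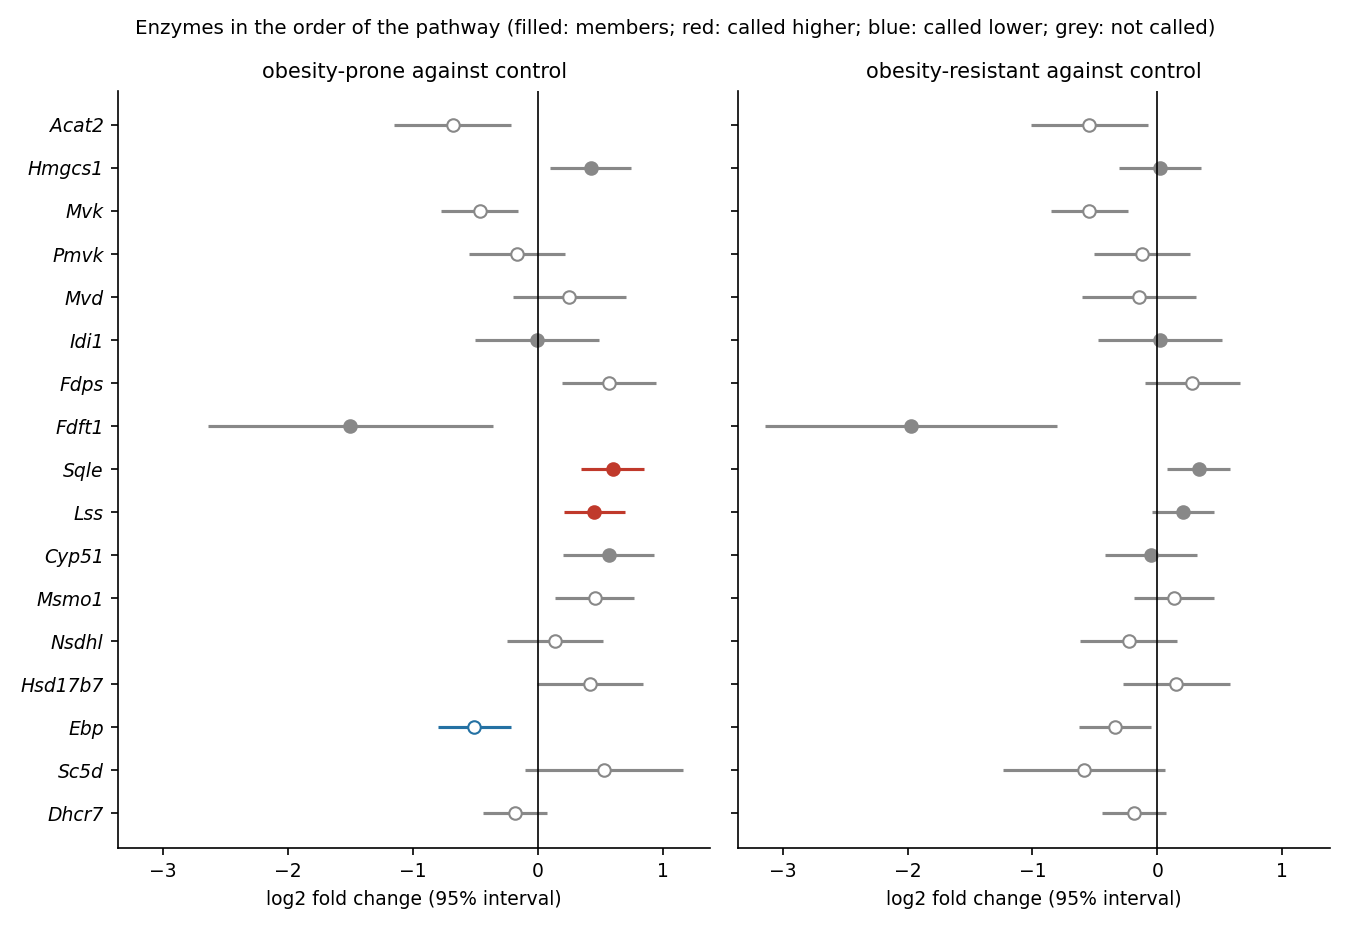
Log2 fold change with 95% interval of cholesterol synthesis enzymes in pathway order, obesity-prone over control (left) and obesity-resistant over control (right); filled points are members, red passed the test as higher and blue as lower. Sqle and Lss (red) passed upward and Ebp (blue) downward in obesity-prone libraries; Fdft1 lies lowest in both panels with the widest intervals.

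FPKM, which divides by transcript length, allows the genes to be ranked by level. Averaged over the 10 libraries, Hmgcs1 had 110.8 FPKM, Insig1 58.3, Srebf2 12.2, Lss 5.86, Idi1 4.84, Sqle 4.12, Fdft1 3.85 and Cyp51 3.82. In every library Hmgcs1 was the highest, Insig1 the next and Srebf2 above Lss. The genes from Lss downward overlap in their FPKM across libraries, so neighbours in that order do not differ beyond their spread. The place of Fdft1 depends on the group: it was the lowest of the 8 in each of the 6 libraries on the high-fat diet (means 2.41 FPKM in obesity-prone and 1.73 in obesity-resistant libraries), while its control mean of 6.52 FPKM was above those of Lss, Idi1, Cyp51 and Sqle. It reached 11.85 FPKM in control replicate 1, above the 10.04 of Srebf2 there. The implied transcript length, which enters the FPKM, ran between 3533 and 4331 bases for Lss and between 3187 and 4069 bases for Cyp51 among the libraries, so their FPKM carries this added spread.

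The balance between the SREBP genes is given per library as a description, since the ratio was not tested. Srebf2 had 15.0, 14.7 and 14.7 FPKM in obesity-prone, 13.6, 11.6 and 13.2 FPKM in obesity-resistant and 10.04, 8.52, 9.43 and 10.8 FPKM in control libraries. Srebf1, whose protein drives fatty acid synthesis, had 52.25, 47.6 and 53.5 FPKM in obesity-prone, 54.8, 48.9 and 42.3 FPKM in obesity-resistant and 100, 52.0, 73.1 and 51.75 FPKM in control libraries. The Srebf1 groups overlapped, and control replicates 1 and 3 were above all other libraries. The log2 ratio of Srebf2 to Srebf1 was -1.86 to -1.69 in obesity-prone, -2.08 to -1.68 in obesity-resistant and -3.32 to -2.26 in control libraries. Every library on the high-fat diet thus had more Srebf2 per Srebf1 than every control library, and the 2 arms of the diet overlapped. For Srebf1 alone, the log2 fold change was -0.52 ± 0.23 in obesity-prone over control libraries (SE; adjusted p = 0.16, edgeR) and did not pass the test.

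**Figure D4:**
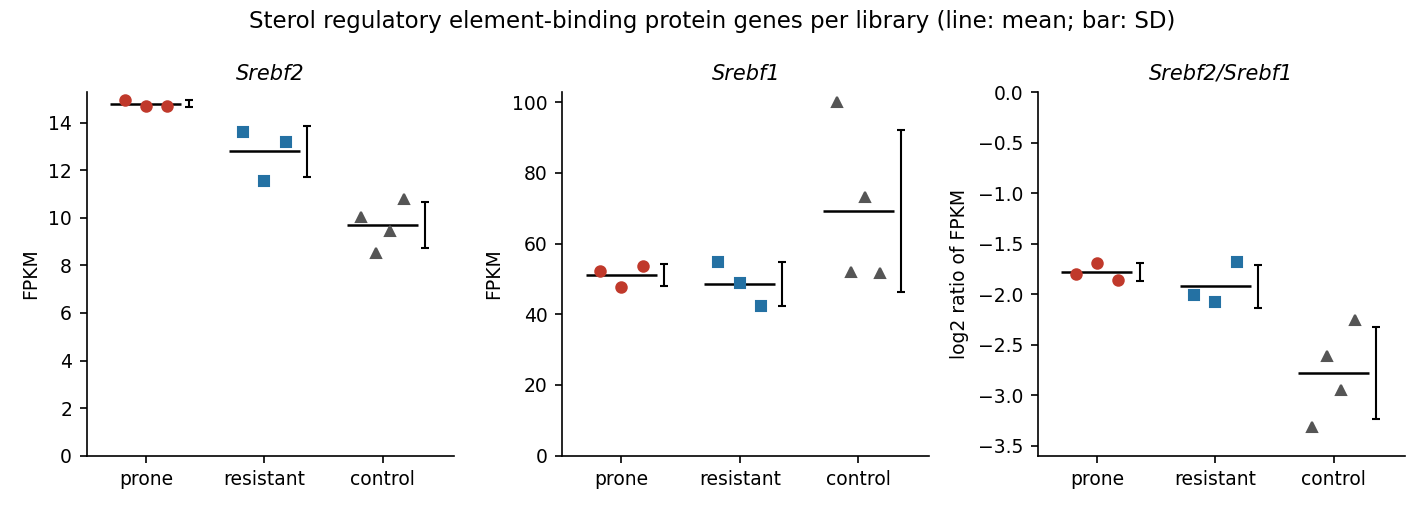
FPKM of Srebf2 and Srebf1 and the log2 ratio of their FPKM in each library; lines are group means and bars SD (n = 3 obesity-prone, 3 obesity-resistant and 4 control libraries). The ratio is -1.86 to -1.69 in obesity-prone libraries and -3.32 to -2.26 in control libraries, with no overlap.

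Among the other 14 enzymes of cholesterol synthesis, 13 passed the filter. None rose and 1 fell in obesity-prone against control libraries by edgeR. At an unadjusted p below 0.05 stood 6, DESeq2 called 6 and limma 1. For this list and those below, edgeR called 7.00% of all 19676 genes tested in either direction in this comparison. Of all these genes, 28.14% had an unadjusted p below 0.05, DESeq2 called 3138 and limma 1026. The median log2 fold change was 0.20. Ebp, the sterol isomerase of the late pathway, had 8.90, 10.7 and 9.42 CPM in obesity-prone and 15.8, 14.5, 13.85 and 10.8 CPM in control libraries. Its groups did not overlap, and it fell by 0.51 on the log2 scale (SE 0.13; adjusted p = 0.046, edgeR), a call held in 8 of 22 alternatives and, when 1 library at a time was left out, in 2 of 10. Mvk, the mevalonate kinase, differed from control by -0.46 ± 0.14 in obesity-prone libraries (SE; adjusted p = 0.066, edgeR) and by -0.54 ± 0.14 in obesity-resistant libraries (SE; adjusted p = 0.10, edgeR). Acat2, which makes acetoacetyl-CoA at the start, differed by -0.68 in obesity-prone over control libraries and did not pass (adjusted p = 0.074, edgeR). Sc5d, a late desaturase, had 55.3, 40.9 and 86.8 CPM in obesity-prone and 26.7, 23.1 and 34.4 CPM in obesity-resistant libraries. The obesity-prone and obesity-resistant libraries did not overlap in Sc5d, with a log2 difference of 1.12 ± 0.31 (SE; adjusted p = 0.23, edgeR). Control libraries lay between 28.97 and 56.07 CPM and overlapped both. Tm7sf2, a sterol reductase, had counts in control replicate 1 only and was not tested.

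Of 14 proteins that control SREBP processing or turnover, all tested, none rose and 1 fell in obesity-prone against control libraries by edgeR. That stands against 7.00% of all genes called in either direction. At an unadjusted p below 0.05 were 6, against 28.14% of all genes, and DESeq2 called 3 and limma 1. Ufd1, which serves the removal of proteins from the membrane of the endoplasmic reticulum, had 38.2, 41.5 and 33.9 CPM in obesity-prone and 53.0, 46.4, 53.9 and 48.8 CPM in control libraries. It fell by 0.42 on the log2 scale (SE 0.09; adjusted p = 0.031, edgeR), a call held in 11 of 22 alternatives and in 2 of the 10 that leave out 1 library. Erlin1, another protein of that removal, differed by 0.48 (SE 0.13; adjusted p = 0.054, edgeR). The escort Scap lay between 50.2 and 63.9 CPM in obesity-prone and 58.7 and 66.7 CPM in control libraries, a log2 difference of -0.14 (95% interval -0.35 to 0.07).

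Aacs, a target of SREBP2 that feeds acetoacetate into the pathway, differed from control in obesity-prone libraries by -0.45 ± 0.44 (SE; adjusted p = 0.54, edgeR).

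Genes that carry or release cholesterol were compared next between obesity-prone and control libraries. Among 14 genes of uptake and transport within the cell, 1 rose and 1 fell, against 7.00% of all genes called in either direction. The median log2 fold change of this list was 0.05. Lipa, the lysosomal acid lipase, had 177.3, 144.8 and 127.5 CPM in obesity-prone and 108.8, 118.4, 112 and 96.6 CPM in control libraries, and rose by 0.46 on the log2 scale (SE 0.12; adjusted p = 0.046, edgeR). That call was held in 9 of 22 alternatives and in 1 of the 10 that leave out a library. Gramd1b, which moves cholesterol between the plasma membrane and the endoplasmic reticulum, had 73.2, 107.2 and 66.3 CPM in obesity-prone, 92.65, 129.3 and 112.4 CPM in obesity-resistant and 155.9, 152.3, 183.8 and 153.8 CPM in control libraries. Every library on the high-fat diet lay below every control library, and Gramd1b fell by 0.97 (SE 0.18; adjusted p = 0.020, edgeR) in obesity-prone libraries, in 19 of 22 alternatives. The exceptions were the fit of only the groups compared and those without obesity-prone replicate 1 or control replicate 3. In obesity-resistant libraries the Gramd1b difference from control was -0.53 ± 0.17 (SE; adjusted p = 0.15, edgeR).

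Of 8 genes of the LXR and efflux list, whose receptors sense oxysterols, none rose and 2 fell in obesity-prone against control libraries by edgeR, and DESeq2 called 4. Abca1, the pump that loads cholesterol onto apolipoprotein A-I, had 207.6, 245.6 and 287.8 CPM in obesity-prone, 295.3, 297.1 and 245.7 CPM in obesity-resistant and 515.8, 433, 547.5 and 379.7 CPM in control libraries. All libraries on the high-fat diet lay below all control libraries. Abca1 fell by 0.93 on the log2 scale (SE 0.16; adjusted p = 0.018, edgeR) in obesity-prone libraries, in 20 of 22 alternatives, the exceptions being the fit of only the groups compared and the one without control replicate 3. Apoe, the apolipoprotein of that export, had 285.4, 277.3 and 455.9 CPM in obesity-prone, 261.4, 335.3 and 316.3 CPM in obesity-resistant and 743.6, 683.5, 536 and 517.2 CPM in control libraries. It fell by 0.87 (SE 0.21; adjusted p = 0.038, edgeR) in obesity-prone libraries, a call held in 8 of 22 alternatives. In obesity-resistant libraries the differences from control were -0.75 for Abca1 and -1.03 for Apoe (adjusted p = 0.077 and 0.074, edgeR). Both genes are also expressed by macrophages, whose 10 markers had a median log2 difference from control of 1.15 in obesity-prone libraries, and their part in the result was not tested. Abcg1, a second pump, differed by 0.66 (SE 0.21; adjusted p = 0.079, edgeR) in obesity-prone against control libraries.

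**Figure D5:**
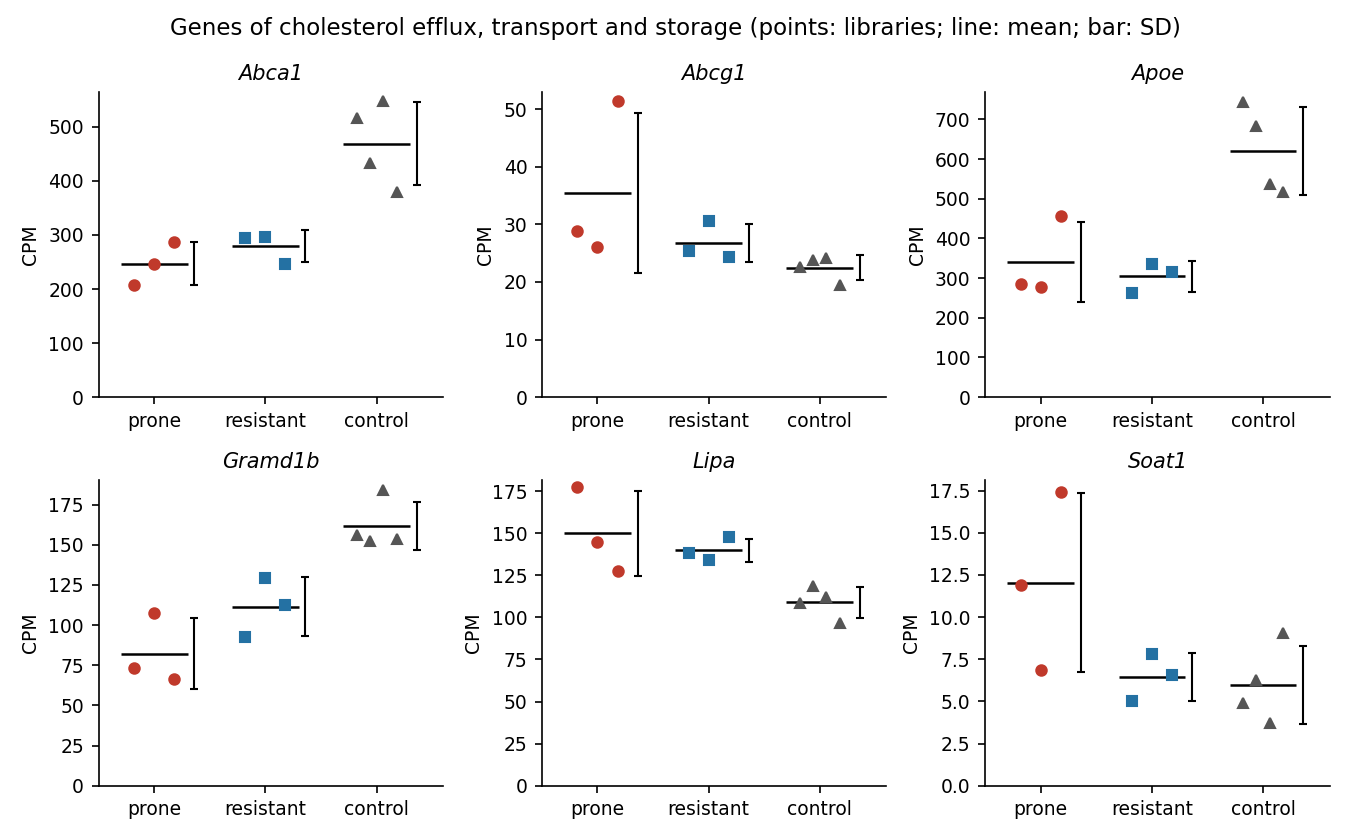
CPM of Abca1, Abcg1, Apoe, Gramd1b, Lipa and Soat1 by library; lines are group means and bars SD (n = 3 obesity-prone, 3 obesity-resistant and 4 control). Abca1, Apoe and Gramd1b are lower in all libraries on the high-fat diet than in all controls, and Lipa is higher in all of them.

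Genes of storage and of the side branches were compared in the same way. Of 4 tested genes of cholesterol esterification and hydrolysis none passed in obesity-prone against control libraries by edgeR. At an unadjusted p below 0.05 were 2, against 28.14% of all genes, and DESeq2 called 1 and limma 0. Soat1, which esterifies cholesterol, differed by 1.01 ± 0.34 (SE; adjusted p = 0.092, edgeR), with overlapping groups. Of 5 oxysterol genes none passed by edgeR, with 1 by DESeq2 and 0 by limma. At an unadjusted p below 0.05 was 1, no larger a share than the 28.14% of all genes. That gene was Hsd3b7, at -0.59 ± 0.21 (SE; adjusted p = 0.10, edgeR). Of 12 enzymes of the isoprenoid branches, which use the same precursors for prenylation, ubiquinone and tRNA, 1 fell and none rose. Of all genes tested, 7.00% were called in either direction. Trit1, which modifies tRNA, fell by 0.58 (SE 0.14; adjusted p = 0.042, edgeR) in obesity-prone against control libraries, in 8 of 22 alternatives.

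Of 12 lipogenic targets of SREBP1, 3 fell and none rose in obesity-prone against control libraries, and their median log2 fold change was -0.66. Acly fell by 2.19 (SE 0.46; adjusted p = 0.027, edgeR), Thrsp, a lipogenic regulator, fell by 2.28 (SE 0.49; adjusted p = 0.030, edgeR), and Acaca, acetyl-CoA carboxylase, fell by 1.84 (SE 0.47; adjusted p = 0.046, edgeR). These calls held in 16, 13 and 7 of 22 alternatives. Scd1, the desaturase, averaged 11820 ± 2773 CPM in obesity-prone (SD, n = 3) and 3038 ± 1810 CPM in obesity-resistant libraries (n = 3), with no overlap. Its log2 difference was 1.96 ± 0.56 (SE; adjusted p = 0.23, edgeR). In obesity-resistant against control libraries no gene of any of these other lists passed edgeR's test without the replicate block. With it, Acly (-2.34, adjusted p = 0.030, edgeR), Thrsp (-2.15, adjusted p = 0.045, edgeR) and Scd1 (-1.97, adjusted p = 0.038, edgeR) passed as lower. Of these, Acly and Thrsp also passed without control replicate 4, and Scd1 did not. In obesity-resistant against control libraries 9 of the 12 lipogenic genes had an unadjusted p below 0.05 and DESeq2 called 6. Among the 13 other cholesterol enzymes tested the counts were 3 and 1, and limma called 0 in both lists. Of all genes tested, 17.99% had an unadjusted p below 0.05 in that comparison, and DESeq2 called 1138.

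The genes whose pattern was most like the members' mean were sought among 13894 named genes with a mean of at least 1 CPM. The measure was Pearson's correlation of log2 CPM with the mean deviation of the 8 genes over the 10 libraries, given as a description. The closest were Nsdhl at 0.905, Aox1 at 0.894, Pitpnb at 0.89, Mxi1 at 0.886, and Pikfyve and Ccny at 0.885 each. Nsdhl, a late enzyme of the same pathway, stood at 0.937 after the group means were removed. Its own levels overlapped between obesity-prone libraries (23.3 to 24.1 CPM) and control libraries (17.2 to 26.25 CPM). The mean included Fdft1, which differs in pattern from the other 7. It was 0.21, 0.26 and 0.18 in obesity-prone, -0.16, -0.24 and 0.07 in obesity-resistant and 0.16, -0.26, 0.16 and -0.37 in control libraries. Without Fdft1 it was 0.28, 0.39 and 0.21 in obesity-prone, -0.04, -0.15 and 0.15 in obesity-resistant and -0.11, -0.44, 0.01 and -0.30 in control libraries. With and without Fdft1 all obesity-prone libraries lay above all control libraries, by a wider margin without it. The correlations above used the mean with Fdft1.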

How the data were processed

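Total RNA of brown adipose tissue was extracted with TRIzol and sequenced in 10 libraries, per the labels' protocols. Per the same labels, the authors aligned reads with Bowtie2 2.2.5 to a company's gene set and computed expression with RSEM 1.2.12. The submitters' processing notes name HISAT2 2.0.4 and GRCm38.p6. The deposited expected counts are RSEM estimates per gene and library, not normalised, and 30.4% of them were not whole. The deposited FPKM values (so named here from their scale) divide by length and depth. The strand setting and annotation release are not given in the sources used here. The authors' 6 columns of group means were not used. A further step restored 26 gene symbols that stood as dates, by their identifiers.

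Expected counts were rounded and analysed in edgeR 4.0.16 (R 4.3.3) with TMM factors, filterByExpr (minimum count 10), a robust quasi-likelihood model with 1 term for each group in the 10 libraries together (7 residual degrees of freedom) and Benjamini-Hochberg adjustment over 19676 genes. The procedure was tested on simulated data whose changes were larger than those of the members that rose. That test therefore does not bear on calls of their size. Groups follow the labels. Each high-fat group was compared with the control group, and obesity-prone with obesity-resistant libraries. Totals of 35583997 to 37327770 counts limit the precision of genes with few counts. Alternatives were DESeq2 1.42.0, upper-quartile or RLE normalisation, no filter, a filter of 1 CPM in 3 libraries, a fit of only the groups compared, a block for the replicate number, limma 3.58.1 on log2(FPKM + 0.5) and likewise with 0.1 and 1, a skeletal muscle covariate, leaving out each library, and leaving out obesity-prone replicate 3 with control replicate 4. The labels give the replicate numbers no meaning. The block was fitted over all 10 libraries, obesity-prone ones included. As only control replicate 4 bears its number, the block leaves that library out of the comparisons. Same-numbered obesity-resistant and control libraries deviated from their group means together, with correlations of 0.139 to 0.228. Each is above the limit of 0.1 for pairing, so the blocked value is given for these where it changes a call. Libraries of different number were not set beside them, so the correlations cannot show that a number marks a shared factor. Unless stated, limma counts in the text use 0.5.

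The 8 genes and all gene lists (157 genes, all found) were chosen with earlier results of these data known. Genes named besides the 8 were their near copies, those called in a list, otherwise the one with the lowest p per list and comparison, and the 6 most like the members. Some items that this rule names are not reported here. Acat2, Scap, Nsdhl's levels, Ctsb and Akap9 were added after their values were seen. Promoters are from RefSeq (GRCm38.p6) and exon overlaps from GENCODE vM21.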

Additional observations from a re-analysis of the deposited data

Results flagged for a closer look

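The Lss level of control replicate 2, 16.37 CPM, stood apart from the other 3 control libraries, which lay between 20.67 and 20.86 CPM. Its gap to the nearest was 0.957 of the range of the group. Chance singles out about 1 in 20 such groups, and 8 groups (the control libraries for each of the 8 genes) were examined. Without this library the log2 fold change of Lss between obesity-prone and control libraries was 0.37 (adjusted p = 0.084, edgeR), against 0.45 (adjusted p = 0.040, edgeR) with it.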

How the results depend on the processing

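In obesity-prone against control libraries 3 of the 8 genes and 1377 of all genes passed the test. DESeq2 gave 7 and 3138, the fit of only the groups compared 0 and 66, the muscle covariate 2 and 652, and leaving out both obesity-prone replicate 3 and control replicate 4 gave 5 and 2635. Leaving out 1 library at a time gave 0 (without control replicate 3) to 5 (without control replicate 4) of the 8 genes and 76 to 3040 of all genes, from the same libraries. Without obesity-prone replicate 1, control replicate 1 or control replicate 2 it was 1 of the 8.

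In obesity-resistant against control libraries 0 and 28 passed. DESeq2 gave 2 and 1138, no filter 76 genes, the filter of 1 CPM 68, only the groups compared 391, the muscle covariate 55, and the fit without both named libraries 2 and 2212. Leaving out 1 library gave 0 to 1 of the 8 genes (Fdft1, without control replicate 4) and 3 to 864 of all genes. In obesity-prone against obesity-resistant libraries 0 of the 8 genes passed in all 22 alternatives. All genes gave 565 by DESeq2 and 0 to 871 when 1 library was left out, with 871 without obesity-prone replicate 2 and 1 without control replicate 3.

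With the replicate number as a block, 3 of the 8 genes (Fdft1, Sqle and Srebf2) and 1582 of all genes passed in obesity-prone against control libraries, and 1 (Fdft1) and 382 in obesity-resistant against control libraries. Both blocked comparisons leave out control replicate 4, the only library with its number. The obesity-prone numbers were not taken as pairs: same-numbered libraries deviated with correlations of -0.123 to -0.098 against control and -0.113 to 0.221 against obesity-resistant libraries. No called value of the 8 genes or of the other named genes changed sign under any alternative. Of the 176 values of the 8 genes under the alternatives in obesity-prone against control libraries, 136 kept direction and side of the threshold, 22 lost the call, 9 gained one and 9 turned the sign of an uncalled value. Causes of these shifts were not tested. Depth limits genes with few counts, such as Cyp46a1 at 0.137 to 0.447 CPM.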

Other observations

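Genes most like Fdft1 alone over the 10 libraries, a search added after its values were seen, were Rab11b (Pearson's correlation of log2 CPM 0.978), Celsr2 (0.971), Jmjd8 (0.971), Kdelr1 (0.97), Csnk1g2 (0.969) and Rtn4 (0.969), among 13894 named genes. These are given as a description, since the libraries share 3 high controls.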
